A study of Mus musculus with 12 samples.

Results

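The leukocyte integrins and the vessel wall molecules they bind were followed as 9 genes in adipose tissue of a mouse model of Bardet-Biedl syndrome. They are the beta2 subunit Itgb2 with its alpha partners Itgax, Itgam, Itgal and Itgad, the alpha4 pair Itga4 and Itgb7, and the ligands Icam1 and Vcam1. The genes were found by symbol among the 53431 gene identifiers of the count table. All 9 were present, each on 1 row, and all 9 passed the filter on low counts that left 15968 genes for testing. The series holds 12 RNA sequencing libraries of adipose tissue, which is not assigned to a depot in the labels, from mice of mixed C57BL/6 x 129/SvJ background at 6 months of age. Of these, 4 libraries came from untreated WT mice, 4 from untreated Bbs2-/- mice, and 4 from Bbs2-/- mice fed the glucosylceramide synthase inhibitor Genz667161 at 0.033% of feed by weight from 2 to 6 months of age. Bbs2 is a subunit of the BBSome, a complex that moves membrane proteins at the primary cilium, and the -/- genotype was shared by treated and untreated mutant mice. Untreated WT mice are the only WT group, so the inhibitor was not measured on the WT genotype. The questions named in the series design are how WT differed from Bbs2-/-, and how Bbs2-/- differed from treated Bbs2-/-. A further comparison, treated Bbs2-/- against WT, is added here.

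Integrins are heterodimers of an alpha and a beta chain that hold cells to other cells and to matrix. The beta2 chain occurs on leukocytes and pairs with alpha-L (LFA-1), alpha-M (Mac-1, CR3), alpha-X (CD11c, CR4) or alpha-D (CD11d). Alpha4 pairs with beta7 or with beta1. In circulating leukocytes these receptors are switched from a bent to an extended form by inside-out signals through Rap1, talin and kindlin-3, after which LFA-1 and Mac-1 bind ICAM-1 and alpha4beta1 binds VCAM-1 on activated endothelium. In adipose tissue, CD11c is widely used as a surface marker of a class of macrophages that accumulates in obesity.

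Estimated counts per library summed to between 16317865 and 20224200, which limits the precision of low genes. Levels are given below as counts per 1e6 counts (CPM) of the scaled library, or as CPM per kb of exon where genes are compared with each other. Whether the libraries of a group came from separate mice is not said in the labels, and the p-values reflect only how these libraries vary. Bbs2 itself stood at 12.1 to 12.7 CPM in the libraries labelled WT, at 53.7 to 70.6 CPM in those labelled Bbs2-/- and at 53.7 to 65.4 CPM in the treated libraries labelled Bbs2-/-. A gene count does not show which exons the reads came from, so this check gives no evidence of the deletion, and the direction goes against a loss of the transcript. The groups are therefore used as labelled. Adipocyte markers were strong in every library, with a summed level of 6 genes of 28900 to 51500 CPM in WT, 22200 to 26000 CPM in untreated and 32400 to 41000 CPM in treated Bbs2-/-. WT replicate 1 stood apart, with 1080 CPM of the epididymal gene Crisp1, which was at 0 in both Bbs2-/- groups. Counts of the ciliated cell gene Foxj1 were 48 in WT replicate 1, 164 in WT replicate 4, 154 in treated replicate 1 and 140 in treated replicate 3, and at most 2 elsewhere. These libraries were therefore also left out, in turn or together. In bulk tissue, fewer cells of a type and less RNA per cell cannot be told apart.

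All 9 genes were higher in untreated Bbs2-/- than in WT adipose tissue, and all 9 were lower in treated than in untreated Bbs2-/- (edgeR's quasi-likelihood test, Benjamini-Hochberg adjusted p between 0.000192 and 0.0447 in the first comparison and between 0.000287 and 0.0273 in the second). Among all 15968 genes tested, 19.6% were called higher in the first comparison and 18.8% were called lower in the second. Groups did not overlap for 8 of the 9 genes in either comparison, against 19.5% of all genes that lay wholly higher in untreated Bbs2-/- than in WT and 20.7% that lay wholly lower in treated than in untreated Bbs2-/-. The median log2 fold change of the 9 genes was 2.12 in the first comparison, beside -0.02 over all genes, and -2.32 in the second, beside 0.03. The untreated Bbs2-/- libraries are part of both comparisons, so the fall is not measured independently of the rise. In treated Bbs2-/- against WT none of the 9 passed, beside 0.257% of all genes, and none had an unadjusted p under 0.05. DESeq2, limma-voom and limma-trend also called 0 of the 9 there. Scaling by library size alone left all 9 called in the first 2 comparisons, while it moved the median of all genes to 0.16 and -0.10. With that scaling the share of calls that were higher went from 49.9 to 69% in the first comparison and from 49.6 to 35.5% in the second.

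**Figure D1:**
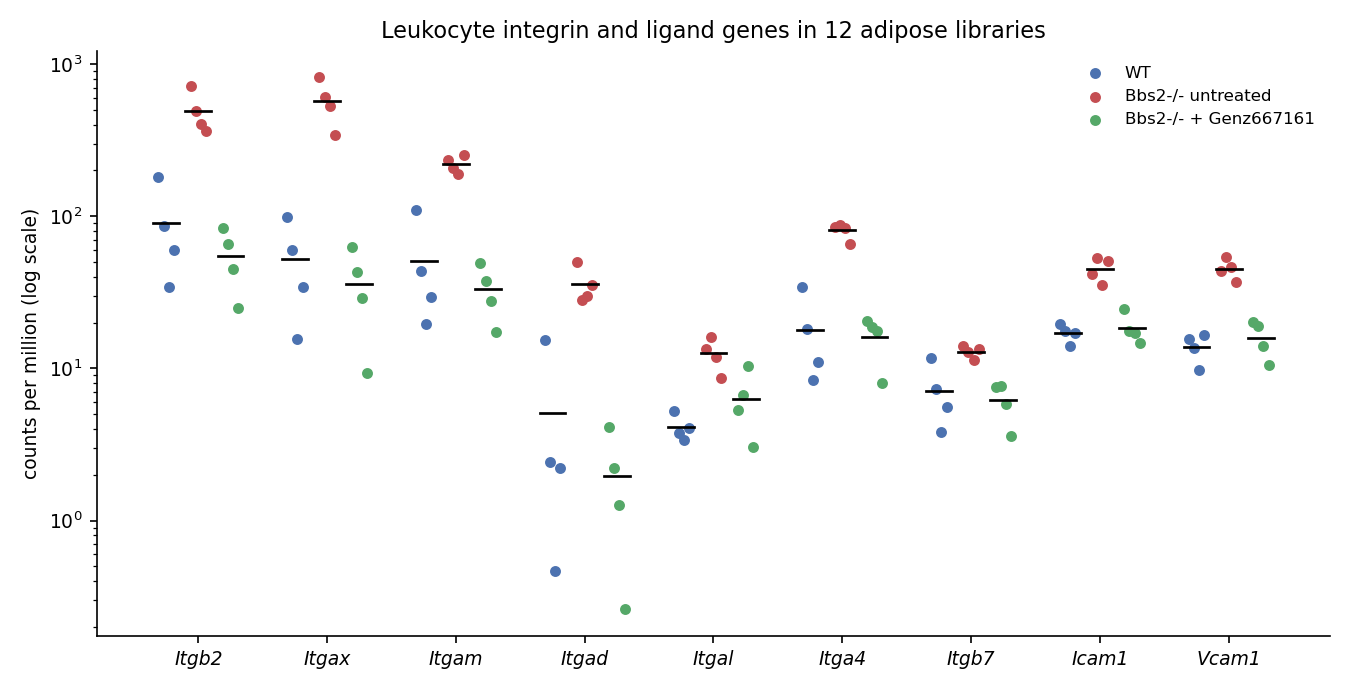
CPM (log axis) of the 9 genes in each of the 12 libraries, with points for libraries in replicate order and black lines for group means. For 8 of the 9 genes the untreated Bbs2-/- libraries lie above every WT library (Itgb7 is the exception), and for 8 of 9 they lie above every treated library (Itgal is the exception).

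Itgb2 encodes the beta chain that all 4 alpha partners need to reach the cell surface. The gene lies on mm10 chr10:77530252-77565708, plus strand. It was at 181, 86.5, 34.3 and 59.9 CPM in WT replicates 1 to 4, at 717, 492, 405 and 364 CPM in untreated Bbs2-/-, and at 83.3, 66.2, 45.3 and 25 CPM in treated Bbs2-/-. Every untreated Bbs2-/- library was above every library of the other groups, and the WT and treated ranges overlapped. Group means were 90.4 ± 64.1, 494 ± 158 and 54.9 ± 25.3 CPM (SD, n = 4 each). Itgb2 rose 5.46-fold in untreated Bbs2-/- (log2 fold change 2.45, SE 0.51, edgeR adjusted p = 0.00316) and was 9-fold lower with treatment (log2 fold change -3.17, SE 0.52, adjusted p = 0.000918). Without WT replicate 1, the highest of its group, the first log2 fold change was 3.04.

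The Itgam, Itgax and Itgad genes lie next to each other on chromosome 7. On mm10, Itgam is at chr7:128062640-128118491, Itgax at chr7:128129547-128150657 and Itgad at chr7:128154376-128223816, all on the plus strand. Itgal lies apart from them at chr7:127296260-127335138, plus strand. Reads of these neighbours are partly interchangeable. Of the distinct 50-base stretches in the Itgam transcripts, 66.3% also occur in the overlapping gene model Gm49368, which was at 0 to 2.01 CPM, and 384 stretches are common to Itgax and Itgad. In all, 13.5% of the Itgad stretches occur in other genes. Itgad shares 330 exon bases with the pseudogene Gm17831 on the same strand. On the opposite strand it shares 388 with 4931431B13Rik, 102 with Gm39091 and 70 with Cox6a2. No value of Itgax or Itgad in the count table and 8.3% of those of Itgam were whole numbers, whereas all values of the other 6 genes were whole. The levels of Itgax, Itgad and Itgam therefore rest in part on how the authors' counting divided shared reads.

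Itgax, which encodes CD11c, had the highest mean CPM of the 9 genes in untreated Bbs2-/-, where its range overlapped that of Itgb2 (364 to 717 CPM). It was at 98.7, 60.4, 15.5 and 34.2 CPM in WT, at 819, 611, 533 and 343 CPM in untreated Bbs2-/-, and at 62.5, 42.9, 28.9 and 9.28 CPM in treated Bbs2-/-. The lowest untreated Bbs2-/- library was above the highest library of either other group. Means were 52.2 ± 36.0, 576 ± 197 and 35.9 ± 22.4 CPM (SD, n = 4 each), an 11-fold rise (log2 fold change 3.46, SE 0.64, edgeR adjusted p = 0.00183) and a 16.1-fold lower level with treatment (log2 fold change -4.00, SE 0.66, adjusted p = 0.000963).

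Itgam encodes CD11b, the alpha chain of Mac-1 on monocytes, macrophages and neutrophils. It was at 110, 43.9, 19.7 and 29.4 CPM in WT, at 234, 208, 189 and 251 CPM in untreated Bbs2-/-, and at 49.4, 37.8, 27.6 and 17.3 CPM in treated Bbs2-/-. The untreated libraries lay close together, with a coefficient of variation of 12.5%, against 80.1% in WT, where replicate 1 was far above the rest. The rise was 4.34-fold (log2 fold change 2.12, SE 0.48, edgeR adjusted p = 0.00529), and the level was 6.67-fold lower with treatment (log2 fold change -2.74, SE 0.49, adjusted p = 0.00154). Without WT replicate 1 the first log2 fold change was 2.83, and without WT replicates 2 and 3 together, whose library names are of another type than the rest, it was 1.67 with an adjusted p of 0.051.

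Itgad encodes CD11d, a beta2 partner known from tissue macrophages. Its WT values were 15.4, 2.43, 0.464 and 2.21 CPM, the untreated Bbs2-/- values 49.8, 28.1, 30.1 and 35.1 CPM, and the treated values 4.14, 2.23, 1.27 and 0.262 CPM. WT replicate 1 held most of the WT signal, and the untreated libraries were above all others. The rise was 6.88-fold (log2 fold change 2.78, SE 0.86, edgeR adjusted p = 0.0248), and the level was 18-fold lower with treatment (log2 fold change -4.17, SE 0.93, adjusted p = 0.00539). Leaving out WT replicate 1 moved the first value to 4.38, and leaving out treated replicate 1 moved the second to -4.81. The call of the rise was lost without WT replicate 2, WT replicate 4 or untreated replicate 1 (adjusted p = 0.0653, 0.0658 and 0.0580), and without a filter on low counts (adjusted p = 0.0716).

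Itgal encodes CD11a, the alpha chain of LFA-1, which lymphocytes carry at high levels. It was at 5.28, 3.78, 3.38 and 4.07 CPM in WT, at 13.5, 16.2, 11.9 and 8.64 CPM in untreated Bbs2-/-, and at 5.33, 6.64, 10.3 and 3.04 CPM in treated Bbs2-/-. Treated replicate 3 was above untreated replicate 4, so the Bbs2-/- groups overlapped. Itgal rose 3.03-fold (log2 fold change 1.60, SE 0.32, edgeR adjusted p = 0.00242) and was 1.99-fold lower with treatment (log2 fold change -0.99, SE 0.32, adjusted p = 0.0273). That fall was no longer called without untreated replicate 1 or 2 or treated replicate 1 or 4 (adjusted p = 0.0596, 0.0763, 0.0684 and 0.0523).

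The sequences before the starts of Itgam and Itgax are shown because these neighbouring genes both rose in untreated Bbs2-/- and fell with treatment. Each run is the 250 bases up to the RefSeq start on GRCm38.p6, plus strand, at chr7:128062390-128062639 for Itgam and chr7:128129300-128129549 for Itgax. Capitals mark matches to short motifs searched on both strands: the PU.1 core GAGGAA, seen as TTCCTC when it lies on the minus strand, the NF-kB site GGAAATTCC, the Sp1 box GGGCGG, seen as CCGCCC on the minus strand, and the AP-1 site TGANTCA. None of these matches overlap in the printed runs.
Itgam: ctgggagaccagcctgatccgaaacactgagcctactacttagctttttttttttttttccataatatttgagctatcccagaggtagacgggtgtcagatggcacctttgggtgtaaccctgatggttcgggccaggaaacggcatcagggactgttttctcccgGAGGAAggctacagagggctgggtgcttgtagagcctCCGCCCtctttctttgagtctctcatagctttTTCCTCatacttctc
Itgax: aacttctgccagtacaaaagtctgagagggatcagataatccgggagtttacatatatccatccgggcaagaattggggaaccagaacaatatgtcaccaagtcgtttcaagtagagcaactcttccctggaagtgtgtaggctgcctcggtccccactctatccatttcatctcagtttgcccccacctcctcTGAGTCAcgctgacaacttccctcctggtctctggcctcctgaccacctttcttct
PU.1 is an ETS factor of myeloid cells, and AP-1 is a dimer of Fos and Jun proteins. The Itgam run holds PU.1 cores that start at -84 and -15 from the gene start and an Sp1 box that starts at -47, and the Itgax run holds an AP-1 site that starts at -56. Among the 32851 RefSeq promoters of 300 bases, 28.3% hold the PU.1 core, 35.7% the Sp1 box and 7.81% the AP-1 site. Promoters of 5 of the 9 genes were matched. Itgal, Itgad, Itgb2 and Vcam1 had no entry.

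Itga4 encodes the alpha4 chain, which many leukocytes use to bind VCAM-1 or fibronectin. The gene is at mm10 chr2:79255426-79333123, plus strand, and shares 1124 exon bases with Cerkl on the opposite strand. It was at 34.1, 18.2, 8.43 and 11.1 CPM in WT, at 85.6, 87.5, 84.0 and 65.9 CPM in untreated Bbs2-/-, and at 20.4, 18.7, 17.7 and 8.03 CPM in treated Bbs2-/-. Every untreated Bbs2-/- library was above every other library. The rise was 4.48-fold (log2 fold change 2.16, SE 0.40, edgeR adjusted p = 0.00182), and the level was 4.98-fold lower with treatment (log2 fold change -2.32, SE 0.41, adjusted p = 0.00132).

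Itgb7, at mm10 chr15:102215995-102231944 on the minus strand, encodes the beta7 chain that pairs with alpha4 or with alphaE on lymphocytes homing to mucosa. It was at 11.7, 7.30, 3.85 and 5.58 CPM in WT, at 14.0, 12.8, 11.3 and 13.5 CPM in untreated Bbs2-/-, and at 7.55, 7.68, 5.87 and 3.62 CPM in treated Bbs2-/-. WT replicate 1 was above untreated replicate 3, so these groups overlapped, while untreated and treated groups did not. Its rise was the smallest of the 9 genes, 1.81-fold (log2 fold change 0.85, SE 0.31, edgeR adjusted p = 0.0447), and it was 2.08-fold lower with treatment (log2 fold change -1.06, SE 0.31, adjusted p = 0.0187). The call of the rise was lost in 13 of 24 alternatives, with adjusted p up to 0.253 without WT replicates 2 and 3. Leaving out any 1 of WT replicates 2 to 4, the 4 untreated libraries or treated replicates 1 to 3 ended it, with adjusted p of 0.0819, 0.105 and 0.112 for the WT libraries, 0.0918, 0.0734, 0.0547 and 0.0761 for the untreated and 0.0512, 0.0503 and 0.0571 for the treated. The fall with treatment was called in all 24.

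Icam1 encodes the ligand of LFA-1 and Mac-1 on endothelium and other cells. It is at mm10 chr9:21015985-21028817, plus strand, and shares 511 exon bases with the antisense gene Gm47079. It was at 19.6, 17.5, 14.0 and 17.0 CPM in WT, at 41.6, 53.5, 35.3 and 50.5 CPM in untreated Bbs2-/-, and at 24.7, 17.5, 17.0 and 14.7 CPM in treated Bbs2-/-. All untreated Bbs2-/- libraries were above all others, and WT replicates lay close together. The rise was 2.65-fold (log2 fold change 1.41, SE 0.18, edgeR adjusted p = 0.000192), and the level was 2.45-fold lower with treatment (log2 fold change -1.29, SE 0.18, adjusted p = 0.000287).

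Vcam1 encodes the main vascular ligand of alpha4beta1. It is at mm10 chr3:116109949-116129688, minus strand, and shares 61 exon bases with the antisense gene Gm43109. Its values were 15.6, 13.7, 9.82 and 16.5 CPM in WT, 43.6, 54.0, 46.4 and 36.8 CPM in untreated Bbs2-/-, and 20.2, 18.9, 14.1 and 10.6 CPM in treated Bbs2-/-. The untreated Bbs2-/- libraries did not overlap with either other group. Vcam1 rose 3.25-fold (log2 fold change 1.70, SE 0.22, edgeR adjusted p = 0.000196) and was 2.83-fold lower with treatment (log2 fold change -1.50, SE 0.21, adjusted p = 0.000347). The calls of Icam1 and Vcam1 in these comparisons held in all 24 alternatives. The libraries were stranded, but whether the counting used strand is not stated in the labels or files. All values of Itga4, Icam1 and Vcam1 were whole numbers. Whether reads of antisense partners were counted with these genes or with Itgad was not tested.

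The sequence before the Icam1 start is shown for its NF-kB match, since NF-kB is the textbook inducer of this gene. The run is the 250 bases up to the RefSeq start on GRCm38.p6 at chr9:21015690-21015939, plus strand, with the same motifs in capitals.
Icam1: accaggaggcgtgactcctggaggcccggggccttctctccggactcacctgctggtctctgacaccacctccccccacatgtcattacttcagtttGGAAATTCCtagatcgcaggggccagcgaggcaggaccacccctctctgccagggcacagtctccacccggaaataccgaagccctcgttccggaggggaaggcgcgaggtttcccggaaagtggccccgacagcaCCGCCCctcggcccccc
The NF-kB match GGAAATTCC starts at -153, and 0.317% of all 32851 promoters hold it. The second match is an Sp1 box that starts at -17. Both positions are counted from the RefSeq start, which lies upstream of the gene start given above for Icam1, chr9:21015985. The NF-kB site of the immunoglobulin kappa enhancer was searched as well and is held by 0.155% of promoters, with no match in the 5 promoters examined. A match describes letters in this window and is not evidence of binding in these samples.

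**Figure D2:**
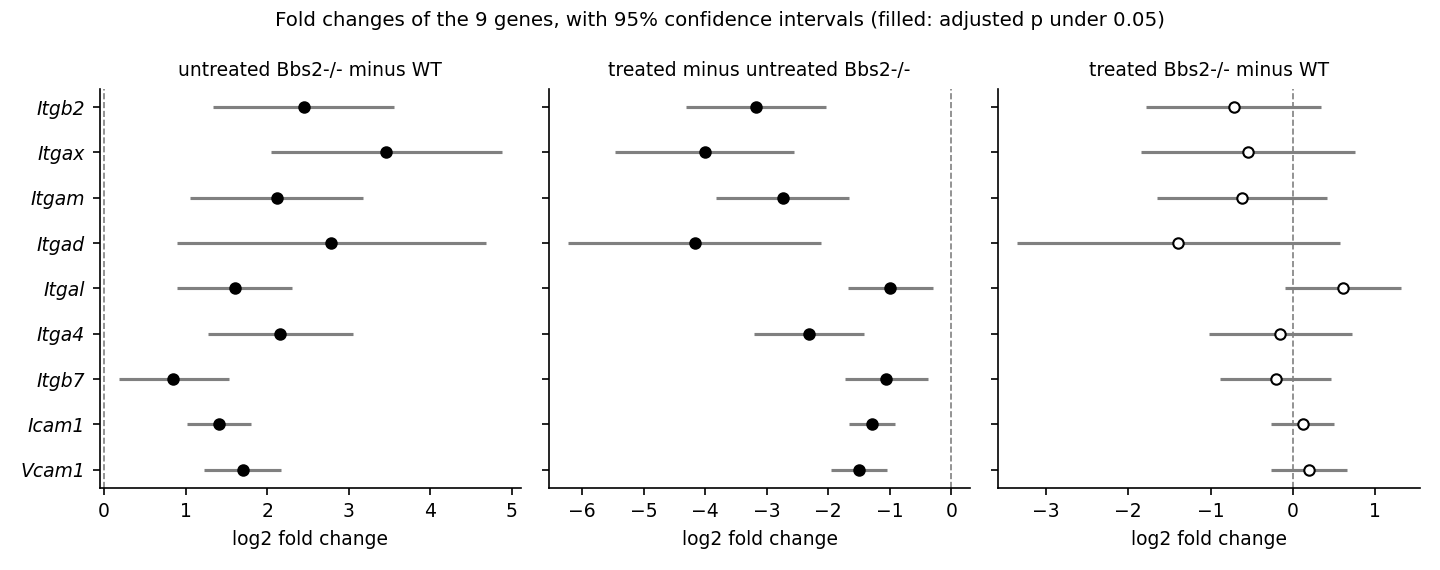
Log2 fold changes from edgeR (horizontal axis) with 95% confidence intervals for the 9 genes in the 3 comparisons, with filled points for adjusted p under 0.05. All 9 intervals lie above 0 for untreated Bbs2-/- against WT, below 0 for treated against untreated, and across 0 for treated Bbs2-/- against WT.

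Treated Bbs2-/- adipose tissue could not be told from WT for any of the 9 genes at this sample size, and the intervals show how large a difference remained possible. For Icam1 the log2 difference, treated minus WT, was 0.12 with a 95% interval of -0.27 to 0.50, and for Vcam1 it was 0.20 with an interval of -0.26 to 0.66. Those 2 intervals are the narrowest. For Itga4 the difference was -0.15 (-1.02 to 0.72), and for Itgb7 it was -0.20 (-0.88 to 0.47). Itgb2, Itgax, Itgam and Itgad had the widest intervals of the 9. Itgb2 differed by -0.72 (-1.78 to 0.34), Itgax by -0.54 (-1.84 to 0.76) and Itgam by -0.62 (-1.65 to 0.41). Itgad, the lowest gene in treated libraries, differed by -1.39 (-3.35 to 0.57). Itgal was the beta2 partner with a positive difference, 0.61 (-0.09 to 1.31). Adjusted p-values of the 9 genes lay between 0.541 and 0.94 in edgeR.

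Per kb of exon, Itgb2 was the highest of the 9 genes in every group, at 29.6 ± 21.0, 162 ± 51.7 and 18 ± 8.29 CPM per kb in WT, untreated and treated Bbs2-/- (SD, n = 4 each). In untreated Bbs2-/- the order of mean CPM per kb was Itgb2, Itgax at 120 ± 41.0, Itgam at 43.9 ± 5.48, Icam1 at 10.4 ± 1.91, Itgad at 7.93 ± 2.17, Itga4 at 5.78 ± 0.714, Vcam1 at 5.10 ± 0.802, Itgb7 at 4.65 ± 0.421 and Itgal at 1.91 ± 0.480. The ranges over libraries overlapped for the neighbours Itgb2 and Itgax (119 to 235 against 71.4 to 171), and those of Itgax and Itgam did not, nor did those of Itgam and Icam1. From Icam1 to Itgb7 each gene's range overlapped the next, and Itgal, at 1.32 to 2.47, lay below them all. In WT the order began Itgb2, Itgax at 10.9 ± 7.5, Itgam at 10.1 ± 8.08 and Icam1 at 3.91 ± 0.530, and these 3 leading genes overlapped widely. Itgal was the lowest gene in WT at 0.629 ± 0.125, where Itgad stood at 1.14 ± 1.53 with an overlapping range. In treated libraries the lowest was Itgad at 0.438 ± 0.366, with Itgal above it at 0.962 ± 0.460 and ranges that also overlapped. The level of Itga4 is spread over 13978 exon bases of all its transcripts, so its value per kb is a low estimate if shorter forms dominate. The same holds for Vcam1, with 8870 exon bases. In the authors' log2 FPKM values for untreated Bbs2-/-, Vcam1 was at 3.68 to 4.2, above Itga4 at 3.02 to 3.39. Itgad was at 3.12 to 3.84 there. The order of Itgad, Itga4 and Vcam1 thus depends on the values used.

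The make-up of the alpha chain RNA was described per library. Of the summed CPM per kb of the 4 alpha genes, Itgax made up 48.1 ± 6.53% in WT, 67.8 ± 8.86% in untreated and 45.1 ± 8.82% in treated Bbs2-/- (SD, n = 4 each). Itgam made up 44.5 ± 5.21%, 26.4 ± 8.07% and 45.4 ± 8.73%. Itgal had its smallest share in untreated Bbs2-/-, with 1.73 to 6.63% in WT, 0.89 to 1.39% in untreated and 3.30 to 11.7% in treated libraries, and the untreated range did not overlap the others. Itgad held 1.32 to 7.33%, 3.51 to 5.97% and 0.986 to 3.74% and overlapped across groups. The sum of the 4 alpha genes per kb was 0.692 to 0.791 times Itgb2 in WT, 0.98 to 1.18 times in untreated and 0.721 to 0.90 times in treated Bbs2-/-. No test was made of these shares.

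**Figure D3:**
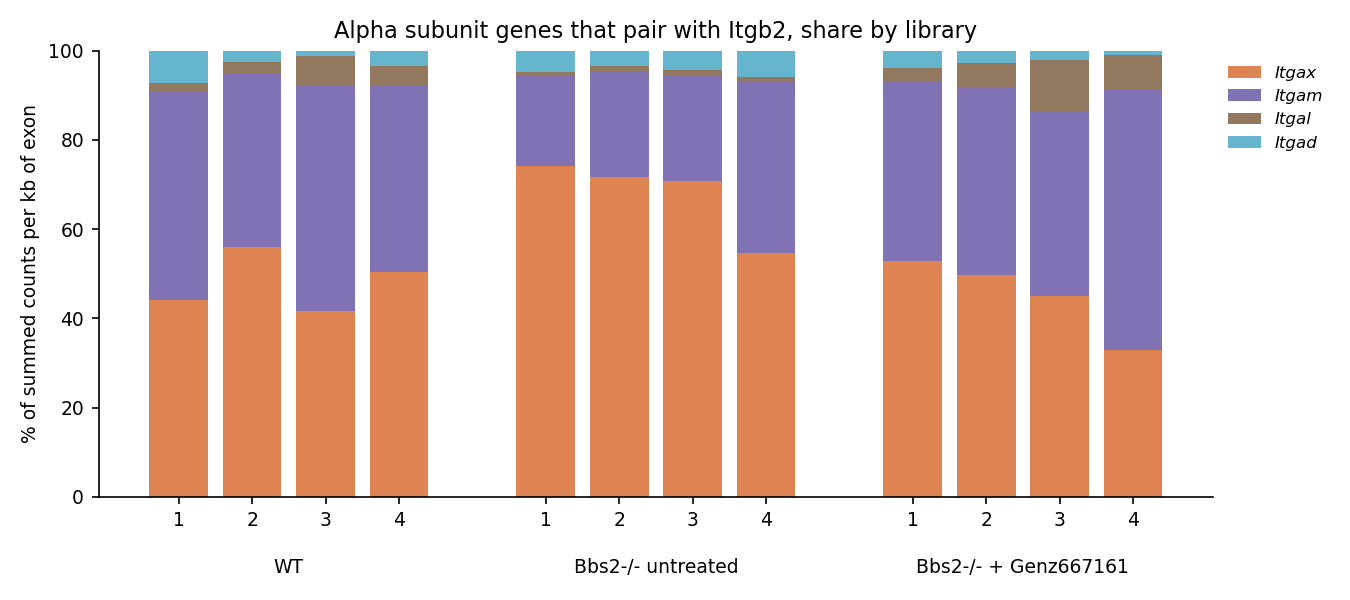
Share (vertical axis, % of summed counts per kb of exon) of Itgax, Itgam, Itgal and Itgad in each library, labelled by replicate within its group. Itgax takes 54.7 to 74.1% in the untreated Bbs2-/- libraries, against 41.6 to 56.1% in WT and 32.8 to 52.9% in treated libraries.

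The ratio of Itgax to Itgam does not depend on how libraries are scaled. Per kb it was 0.941, 1.44, 0.824 and 1.22 in WT, 3.66, 3.07, 2.95 and 1.43 in untreated Bbs2-/-, and 1.32, 1.19, 1.10 and 0.561 in treated Bbs2-/-. In 3 untreated libraries the ratio was above that of all other libraries, while untreated replicate 4 was level with WT replicate 2. The mean log2 ratio was 1.28 higher in untreated Bbs2-/- than in WT (exact two-sided permutation test, p = 0.0571, adjusted over 3 comparisons p = 0.0857). The change from untreated to treated Bbs2-/- was -1.40 (exact permutation p = 0.0286, the smallest that 4 against 4 allows, adjusted p = 0.0857). Treated and WT differed by -0.12 (exact permutation p = 0.743). With the authors' log2 FPKM values the changes were 1.28 and -1.38, each with an adjusted p of 0.0429 in the exact permutation test, because untreated replicate 4 (0.65) then stood just above WT replicate 2 (0.62) on the log2 scale. The log2 FPKM values are 0 where counts are 0, so they hold an added constant. Their difference is therefore not a plain log2 ratio, and the constant weighs more at the lower WT and treated levels. The different size of the Itgax and Itgam changes thus passed only with these values and not with the counts. The part of the added constant in that pass was not tested.

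Within the alpha4 pair the ratio of Itgb7 to Itga4 per kb was lowest in untreated Bbs2-/-. It was 1.73 to 2.54 in WT, 0.678 to 1.03 in untreated and 1.68 to 2.28 in treated Bbs2-/-, and the untreated libraries did not overlap with the others. Vcam1 to Icam1 was 0.345 to 0.475, 0.358 to 0.646 and 0.355 to 0.531 in the 3 groups, which overlapped. Neither ratio was tested.

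**Figure D4:**
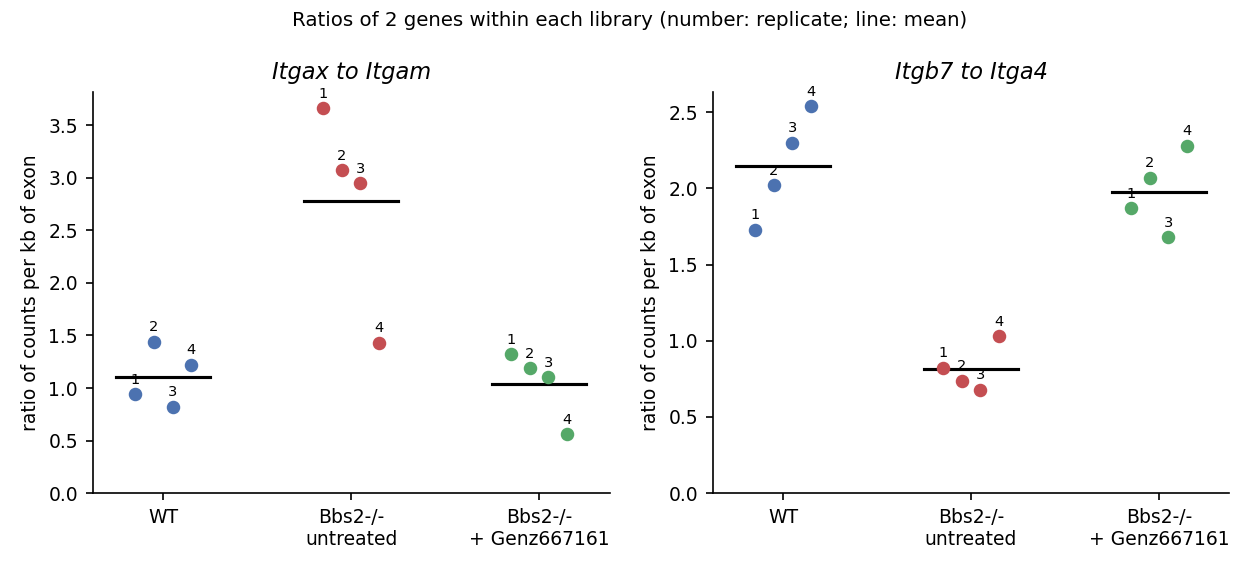
Ratio of counts per kb of exon of Itgax to Itgam (left) and of Itgb7 to Itga4 (right) in each library, numbered by replicate, with lines for group means. The Itgax to Itgam ratio is 2.95 to 3.66 in 3 untreated Bbs2-/- libraries and 1.43 in replicate 4, and the Itgb7 to Itga4 ratio is 0.678 to 1.03 in untreated Bbs2-/- against 1.68 or more elsewhere.

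RNA of leukocytes as a whole moved with the integrin genes. Over all genes tested, 19.6% were called higher and 19.7% lower in untreated Bbs2-/- against WT. With treatment 18.5% were called higher and 18.8% lower. In a list of 5 or 6 genes, 1 or 2 calls are near these shares. All 6 genes of a pan-leukocyte list (Ptprc, Cd53, Coro1a, Laptm5, Dock2 and Was) rose in untreated Bbs2-/- and fell with treatment, and their summed level was 142 to 458 CPM in WT, 1120 to 1360 CPM in untreated and 135 to 347 CPM in treated Bbs2-/-. Of 6 macrophage genes, 5 rose and 5 fell, with sums of 299 to 950, 2780 to 3800 and 326 to 677 CPM. Of 6 dendritic cell genes, which include Flt3 and Zbtb46, none rose and 1 fell in untreated Bbs2-/-, and 1 rose and none fell with treatment. Their sum was 39.1 to 49.4 CPM in WT, 27.9 to 36.4 CPM in untreated and 37.4 to 41.2 CPM in treated Bbs2-/-. The median log2 fold changes of these 6 genes were 0.02 and -0.49, so the sum did not follow the median gene. For T cells, 2 of 6 genes rose and none fell with treatment, with sums of 3.60 to 6.48, 8.78 to 18 and 4.51 to 14.0 CPM. All 5 B and plasma cell genes rose and 3 fell, with sums of 4.68 to 7.79, 61.3 to 109 and 6.31 to 25.8 CPM.

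Among the other lists, the 3 neutrophil genes that could be tested rose and 2 fell. The sum of all 6 neutrophil genes was 14.6 to 32.6, 57.4 to 74.7 and 8.81 to 33.2 CPM, with Ly6g at 0 in all WT and Retnlg at 0 in all treated libraries. Of 5 mast cell genes 4 rose and 4 fell (16.1 to 31.1, 36.2 to 162 and 15.4 to 23.8 CPM). Of 4 tested NK cell genes 2 rose and 3 fell (0.878 to 3.31, 4.28 to 9.09 and 0.997 to 1.69 CPM), and of 3 tested eosinophil genes 1 rose and 2 fell (0.73 to 1.63, 5.39 to 9.82 and 0.262 to 1.19 CPM), with Epx at 0 in both Bbs2-/- groups. Endothelium is the site on which Icam1 and Vcam1 are best known. Of 6 endothelial genes, none passed in untreated Bbs2-/- against WT and 4 rose with treatment, with sums of 534 to 895, 428 to 736 and 807 to 1130 CPM. Of 5 fibroblast genes 2 rose and 2 fell (905 to 1430, 1740 to 2070 and 1060 to 1380 CPM), and of 6 adipocyte genes 4 fell and then 5 rose. The shares over all genes given above apply to these lists as well, and few calls in a short list are near them. The part of cell type differences in the integrin results was not tested beyond the scaling that follows.

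Scaled to the summed counts of the pan-leukocyte list, the 9 genes gave values on either side of 0. In untreated Bbs2-/- against WT, Itgax (log2 fold change 1.40, SE 0.44, edgeR adjusted p = 0.00166) and Itgad (1.0, SE 0.47, adjusted p = 0.0384) rose relative to that RNA, beside 0.507% of all genes called higher. Itgb7 (-1.35, SE 0.47, adjusted p = 0.00434) and Icam1 (-0.97, SE 0.43, adjusted p = 0.0275) fell relative to it, where 90.5% of all genes did so and the median of all genes was -2.45. The small share called higher follows from this scaling, which lowered most genes. The 6 macrophage genes had a median of 0.49 on this scale, with 0 called higher and 1 called lower. The fold changes of Itgam (0.06), Itga4 (0.04), Itgb2 (0.37), Itgal (-0.73) and Vcam1 (-0.64) did not pass. With the macrophage list as the reference Itgal (-1.03, adjusted p = 0.0208) and Vcam1 (-0.95, adjusted p = 0.0185) passed as lower and Itgad (0.69, adjusted p = 0.124) was lost, and Vcam1 also passed without WT replicate 1 (-0.82, adjusted p = 0.0442). The calls of Itgad and Icam1 were lost without any 1 of WT replicates 3 and 4 or untreated replicates 1, 3 and 4 (adjusted p 0.0533 to 0.142), and that of Itgad also without WT replicate 2 (adjusted p = 0.123). Without WT replicates 2 and 3 together, Itgad was at 0.38 (adjusted p = 0.496) and Icam1 at -0.71 (adjusted p = 0.15).

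In treated against untreated Bbs2-/- on the same scale, Itgax (-1.81, SE 0.44, edgeR adjusted p = 5.69e-05), Itgad (-2.03, SE 0.49, adjusted p = 4.44e-05) and Itgb2 (-0.88, SE 0.44, adjusted p = 0.0475) fell relative to leukocyte RNA, beside 0.683% of all genes called lower. Itgal (1.44), Itgb7 (1.31), Icam1 (1.16) and Vcam1 (0.88) rose relative to it, with edgeR adjusted p of 0.00273, 0.00544, 0.00867 and 0.0462, where 91.6% of all genes were called higher and the median was 2.55. The small share called lower again follows from the scaling. The 6 macrophage genes had a median of -0.43 here, with 2 called lower and 1 called higher. Itgam (-0.41) and Itga4 (0.03) did not pass. The Itgb2 call was lost with the macrophage list (adjusted p = 0.207) or Ptprc alone (adjusted p = 0.083) as the reference, and without the 4 libraries with over 10 Foxj1 counts (adjusted p = 0.0573). With Ptprc alone the Vcam1 call was lost too (0.93, adjusted p = 0.0506). Leaving out single libraries ended the Itgb2 call for WT replicates 2 and 4, untreated replicates 1 to 3 and treated replicates 2 to 4 (adjusted p 0.0568 to 0.19). It ended the Vcam1 call for the same libraries and untreated replicate 4 (adjusted p 0.0503 to 0.134), and the Itgal call without treated replicate 3 (adjusted p = 0.0707). The calls of Itgax and Itgb7 in both comparisons were not lost in any alternative run on this scale. In treated Bbs2-/- against WT none of the 9 passed on this scale, beside 0.213% of all genes, and 1 of 9, Itgad, had an unadjusted p under 0.05 (0.0321). Standard errors on this scale were between 0.42 and 0.49 for all 9 genes. In the first comparison they were 0.42 for Ptprc and 0.45 for Sharpin and Vtn. They differed little between such unlike genes, so calls made or lost on this scale say little of each gene's own spread. The untreated Bbs2-/- libraries are again part of both comparisons.

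**Figure D5:**
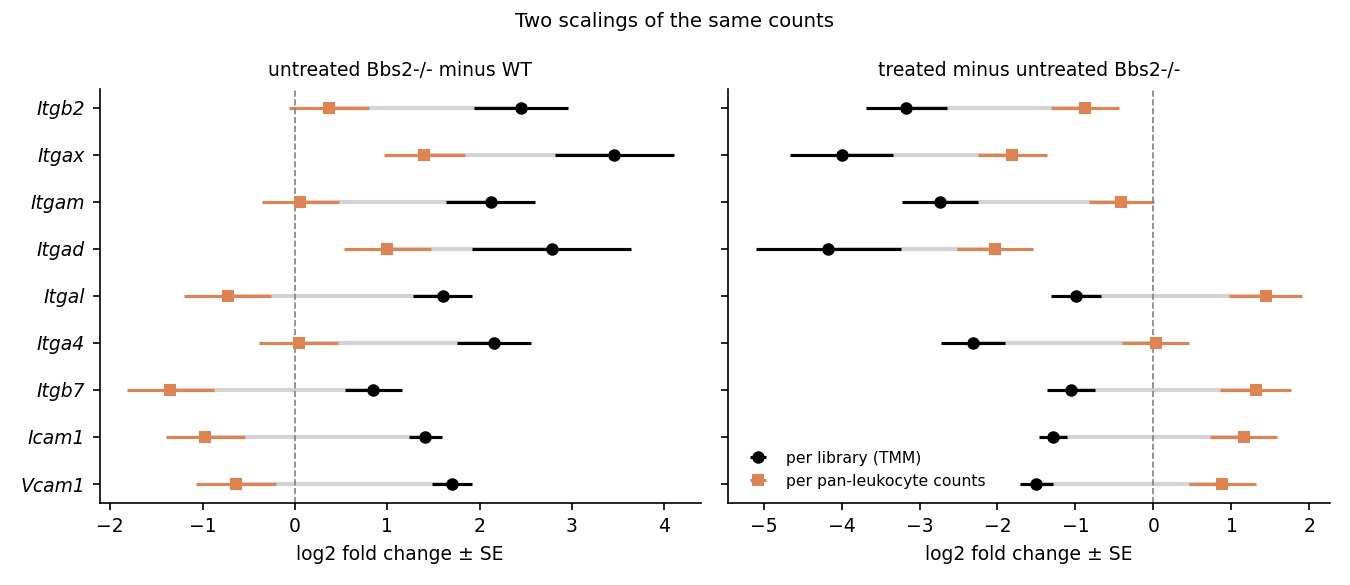
Log2 fold changes with SE (horizontal axis) of the 9 genes under the usual library scaling (circles) and scaled to the summed counts of 6 pan-leukocyte genes (squares), for untreated Bbs2-/- against WT (left) and treated against untreated Bbs2-/- (right). On the second scale Itga4 lies near 0, at 0.04 on the left and 0.03 on the right. Itgam is at 0.06 on the left and -0.41 on the right, while Itgax stays at 1.40 on the left and -1.81 on the right.

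Other integrin subunits moved in smaller numbers. Of 18 tested, 5 rose and 2 fell in untreated Bbs2-/- (background 19.6% higher and 19.7% lower), with a median log2 fold change of 0.21. Itga5, the fibronectin receptor alpha chain, rose from 61.6 ± 6.27 to 141 ± 21.7 CPM (SD, n = 4 each; log2 fold change 1.19, SE 0.15, edgeR adjusted p = 0.000185). Itgav, which binds vitronectin and other RGD ligands, rose by 1.04 (SE 0.18, edgeR adjusted p = 0.000911), and Itga9, a partner of beta1, by 1.02 (SE 0.20, edgeR adjusted p = 0.00209). Itgae, the alphaE chain that pairs with Itgb7, was 4.15 ± 0.773 CPM in WT and 2.44 ± 0.305 CPM in untreated Bbs2-/- and fell by 0.76 (SE 0.19, edgeR adjusted p = 0.00797), a call lost without WT replicates 2 and 3 (-0.73, adjusted p = 0.064). With treatment 1 of the 18 rose and 6 fell (background 18.5% and 18.8%), with Itga11 at -1.29, Itga5 at -1.09, Itgb3 at -1.33 and Itgav at -1.14 on the log2 scale and edgeR adjusted p of 0.000261, 0.000275, 0.000351 and 0.000529. None of the 18 passed in treated Bbs2-/- against WT in edgeR, where 3 had an unadjusted p under 0.05, and 1 passed in DESeq2.

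Of 20 genes that regulate integrin activation or link integrins to actin, 12 rose and 4 fell in untreated Bbs2-/- (background 19.6% higher and 19.7% lower), and 13 fell and 3 rose with treatment (background 18.8% and 18.5%). The list also holds restraining factors. Of these, Itgb1bp1 (ICAP-1), an inhibitor of beta1 integrins, fell by 1.13 and rose by 1.05 (edgeR adjusted p = 0.000632 and 0.000975), and Cytip, which binds cytohesins, rose by 0.91 and fell by 0.93 (edgeR adjusted p = 0.0342 and 0.0312). Sharpin, an inhibitor of integrin activation, was at 0.00 in both comparisons (edgeR adjusted p = 0.982 and 0.985). These 3 genes were named after their values were seen, and they need not be the only list genes that can restrain integrins. Filamin A (Flna), also named after its values were seen, was at 0.29 and -0.75 (edgeR adjusted p = 0.444 and 0.0512). The median log2 fold changes of the 20 genes were 0.84 and -0.86. Apbb1ip (RIAM), which carries Rap1 to talin, rose from 35.3 ± 6.66 to 110 ± 11 CPM and was 21.3 ± 4.34 CPM with treatment (SD, n = 4 each; log2 fold changes 1.64 and -2.37, edgeR adjusted p = 6.48e-05 and 1.48e-05). The adaptor Skap2 rose by 1.01 and fell by 1.04 (edgeR adjusted p = 9.14e-05 and 7.40e-05). Fermt3, the kindlin of blood cells, rose by 2.25 and fell by 2.53 (edgeR adjusted p = 0.00171 and 0.000966), whereas Fermt2, the kindlin of other tissues, fell by 0.93 and then rose by 0.74 (edgeR adjusted p = 0.00021 and 0.000663). Fermt3 was picked after its values were seen, as the counterpart of Fermt2. Paxillin (Pxn) rose by 0.69 in untreated Bbs2-/- (edgeR adjusted p = 0.000168). The small GTPase Rap1b and its effector Rassf5 (RAPL) fell by 1.06 and 1.32 with treatment (edgeR adjusted p = 0.000231 and 0.000416). None of the 20 passed in treated Bbs2-/- against WT in edgeR, where 2 had an unadjusted p under 0.05, and 2 passed in DESeq2.

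Of 17 genes of rolling and vessel wall adhesion, 14 could be tested, and 4 rose and 2 fell in untreated Bbs2-/- (background 19.6% higher and 19.7% lower). With treatment 4 rose and 3 fell (background 18.5% and 18.8%). The median log2 fold changes were 0.05 and 0.24, beside -0.02 and 0.03 over all genes. Sele, the endothelial E-selectin, had rounded counts of 1, 0, 0 and 0 in WT, 16, 22, 18 and 33 in untreated Bbs2-/- and 3, 9, 3 and 0 in treated Bbs2-/-, and passed in both comparisons (edgeR adjusted p = 0.00109 and 0.018). At such counts no fold is given. Selplg, the P-selectin ligand on leukocytes, rose by 1.81 and fell by 2.24 (edgeR adjusted p = 0.00122 and 0.000416). Cd99l2 fell by 0.47 in untreated Bbs2-/- and rose by 0.42 with treatment (edgeR adjusted p = 0.000959 and 0.00207), and the junction molecule F11r (JAM-A) fell by 0.87 and rose by 0.72 (edgeR adjusted p = 0.00139 and 0.0043). Icam2, the constitutive endothelial ligand of LFA-1, was at -0.26 in untreated Bbs2-/- (edgeR adjusted p = 0.317) and rose by 0.61 with treatment, without overlap of the groups (SE 0.19, edgeR adjusted p = 0.027). It was added after its values were seen, for comparison with Icam1.

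Of 10 other integrin ligands, 4 rose and 1 fell in untreated Bbs2-/- (background 19.6% higher and 19.7% lower), and 5 fell with treatment (background 18.8%). The median log2 fold changes were 0.48 and -0.20. Fn1, fibronectin, the matrix ligand of alpha4beta1 and alpha5beta1, rose from 396 ± 79.8 to 1460 ± 228 CPM and was 331 ± 79.2 CPM with treatment (SD, n = 4 each; log2 fold changes 1.89 and -2.15, edgeR adjusted p = 8.45e-05 and 4.69e-05). C3, whose cleaved form iC3b is bound by Mac-1 and CD11c, rose from 365 ± 77.6 to 1730 ± 368 CPM and was 640 ± 231 CPM with treatment (log2 fold changes 2.24 and -1.43, edgeR adjusted p = 0.000148 and 0.00133). Emilin1 rose by 1.18 and fell by 0.97, and Thy1, a ligand of Mac-1, rose by 0.70 and fell by 1.08 (edgeR adjusted p between 0.000425 and 0.00619). None of these ligands or of the vessel wall genes passed in treated Bbs2-/- against WT in edgeR. In edgeR 2 of the 10 ligands and 3 of the 14 vessel wall genes had an unadjusted p under 0.05 there, Sele among them (unadjusted p = 0.0131), and DESeq2, limma-voom and limma-trend called 0 of either list.

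For each of the 9 genes the 2 genes most alike were those with the smallest root mean square difference of centred log2 CPM over the 12 libraries, among 12257 protein-coding candidates. The closest match of all was that of Itga4 with Ptprc, the pan-leukocyte antigen CD45, at 0.10, followed by Arhgap30 at 0.14. Icam1 was nearest to Smap2 (0.12) and Actr3 (0.16), Itgam to Cd44 (0.15) and Igsf6 (0.16), and Vcam1 to Bgn (0.18) and Ssc5d (0.20). Itgb7 was nearest to Col6a3 and Myo5a (0.19 each), Itgb2 to Soat1 (0.19) and Arhgap25 (0.20), and Itgal to Ccl5 (0.22) and Il2rb (0.28). Itgax was nearest to Stap1 (0.27) and Mmp12 (0.36), and Itgad to Rnf128 (0.30) and Atp6v0d2 (0.33). The median difference over candidates was 0.69 for Itgb7 and 2.35 for Itgad, the ends of the range, so a small difference means less for genes that varied little.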

How the data were processed

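Adipose RNA was extracted with TRIzol and RNeasy columns and made into stranded TruSeq mRNA libraries, per the labels' protocols. The authors deposited unscaled estimated counts per gene for 12 libraries, and log2 FPKM values for 18810 genes, whose upper quartile was 3.96 in all libraries. Between 92.96 and 94.17% of the counts were whole within 1e-06. Genome build mm10 is named in the submitters' processing notes. Aligner, counting tool and strand setting are not stated in labels or files.

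After rounding, whole counts entered edgeR 4.0.16 (R 4.3.3): TMM scaling, filterByExpr by group, the robust quasi-likelihood test, 1 fit of all 12 libraries with group as its only term, and Benjamini-Hochberg adjustment over 15968 genes at 0.05. Intervals are at 95%. A second fit took the log of the summed pan-leukocyte counts as its offset. Ratios were tested by exact permutation (SciPy 1.17.1). DESeq2 1.42.0 and limma 3.58.1, other filters and scalings, and leaving out libraries were alternatives. The fit was checked on simulated counts. Symbols and coordinates came from GENCODE vM21 (52207 of 53431 identifiers matched), promoters from RefSeq on GRCm38.p6.

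The 9 genes and all lists were chosen with earlier results of these data known. Named list genes are the up to 4 with the smallest p past the threshold per comparison, exceptions being stated. The values of 1 such gene are not reported here. For likeness, candidates had a mean log2 CPM of at least 1 (prior count 2).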

Additional observations from a re-analysis of the deposited data

Results flagged for a closer look

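Among 30 groups of 4 libraries examined for the 9 genes and the Itgax to Itgam ratio, 2 held a library far from the other 3. Chance puts about 1 in 20 such groups there. Itgad stood at 15.4 CPM in WT replicate 1, with 2.43 CPM in the nearest other WT library. The same library held 1080 CPM of the epididymal gene Crisp1 and the highest pan-leukocyte sum of its group, 458 CPM. Itga4 stood at 65.9 CPM in untreated Bbs2-/- replicate 4, with 84.0 CPM in the nearest other library of its group. That library also had the lowest Itgax level of its group, 343 CPM, and the highest Itgam level, 251 CPM. Its pan-leukocyte sum, 1360 CPM, was the highest of the 4.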

How the results depend on the processing

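The count of the 9 genes called was 6 to 9 in untreated Bbs2-/- against WT over all alternatives, 8 to 9 in treated against untreated and 0 in treated against WT. Leaving out 1 library gave 7 to 9, 8 to 9 and 0 to 0. The lowest count, 6, came without WT replicates 2 and 3, where Itgam, Itgad and Itgb7 were lost. Without a filter on low counts 7 were called, and with a minimum log2 fold change of 1 both first comparisons gave 8. That minimum left 3 of the 7 calls among other integrin subunits and 9 of the 16 among activation genes in the first comparison, and 8 of the 16 among activation genes and 3 of the 7 among vessel wall genes in the second. Without the 4 libraries with over 10 Foxj1 counts the calls were 9, 9 and 0. No called gene changed direction in any alternative. Relative to pan-leukocyte counts, 4 of the 9 were called in the first comparison, 2 to 5 when 1 library was left out and 2 without WT replicates 2 and 3. In the second, 7 were called and 4 to 7 when 1 library was left out (4 without treated replicate 3), and in the third 0 to 0. The log2 ratio of Itgax to Itgam ranged over 1.12 to 1.57, -1.70 to -1.13 and -0.26 to 0.15 when 1 library was left out. The difference of the log2 FPKM values, which hold an added constant, was 1.28 and -1.38 with an adjusted p of 0.0429 in the exact permutation test. With 3 against 4 libraries that test has little room, and a lost call there says nothing of stability. Itgad, at 0.262 CPM in its lowest library, and Sele, at 0 counts in several, are limited by depth.

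Replicate numbers are shared by the groups, but do not pair the samples by the labels. Correlations of same-numbered libraries were -0.02 to 0.02 (untreated Bbs2-/- and WT), 0.10 to 0.31 (treated and untreated, 3 of 4 pairs over 0.1) and -0.15 to 0.28 (treated and WT). Libraries of the first-named group correlated best with their own number in 0, 3 and 1 of 4 cases. With a replicate block 9, 9 and 0 of the 9 genes were called, and 4, 7 and 0 relative to pan-leukocyte counts. Genes called in all went from 6263 to 6012, from 5947 to 5680 and from 41 to 9.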
